A study of Mus musculus with 32 samples.

Results

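Hsd11b1 and 6 genes of the glucocorticoid response (Nr3c1, Fkbp5, Tsc22d3, Per1, Sgk1 and Klf9) were examined in re-sorted lung organoid cultures. The 7 genes were a fixed list of symbols, and all 7 are among the 11818 genes of the count table. The list was chosen by the measured Hsd11b1 level, which had been seen to be higher after EV treatment in CCL206 fibroblasts. Values of that contrast, EVs against vehicle in CCL206 fibroblasts, are therefore given as a description without a test. Epcam+ cells (CD45-/CD31-) were freshly isolated from the lungs of C57BL/6J mice aged 8 to 14 weeks. They were grown in Matrigel together with CCL206 cells, a mouse lung fibroblast line inactivated with mitomycin C. Cultures of 4 mice each received vehicle, EVs (extracellular vesicles, 1000000000 particles/mL) or SFs (soluble factors, 30 µg/mL), both derived from MRC5 human lung fibroblasts, or recombinant human OGN (osteoglycin, 10 µg/mL). After 72 h, Epcam microbeads divided each culture into an Epcam fraction and a CCL206 fraction, giving 32 RNA-seq libraries in 8 groups of 4 mice. The fibroblasts of all groups are 1 line, so the 4 CCL206 replicates of a group differ in the mouse whose epithelial cells they had been grown with. No group received a glucocorticoid according to the study's methods, and all cultures contained fetal bovine serum, whose steroid content was not measured here.

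Glucocorticoids act through the receptor encoded by Nr3c1, which waits in the cytoplasm in a complex of heat shock proteins and co-chaperones and moves to the nucleus when hormone binds. Hsd11b1 encodes an enzyme of the endoplasmic reticulum that turns inert keto-steroids back into active corticosterone, so that a cell can make its own ligand, and lung fibroblasts are a known site of this step. Among the response genes, Fkbp5 encodes a co-chaperone that lowers the receptor's affinity for hormone, Tsc22d3 (also called GILZ) an anti-inflammatory protein, and Per1 a repressor of the circadian clock. Sgk1 encodes a kinase that promotes sodium transport, and Klf9 a zinc finger repressor.

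Promoter sequences of RefSeq (GRCm38.p6) were used for 6 of the 7 genes, and Nr3c1 was left out of this search. They form 14 windows of 250 bases that end at the base before an annotated transcript start. The windows of 3 genes are shown here because their genes carry the results, Hsd11b1 and Fkbp5 for their opposite response to OGN and Sgk1 for a receptor motif. In each sequence, written 5′ to 3′ on the gene's strand, capitals mark the matches to the motifs searched on both strands.
Hsd11b1 (chr1:193242361-193242610, minus strand): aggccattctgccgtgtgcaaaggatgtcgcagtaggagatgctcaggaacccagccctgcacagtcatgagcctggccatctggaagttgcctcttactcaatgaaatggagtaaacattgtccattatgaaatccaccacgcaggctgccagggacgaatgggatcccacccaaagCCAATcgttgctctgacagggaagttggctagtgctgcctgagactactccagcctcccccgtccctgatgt
Fkbp5 (chr17:28486150-28486399, minus strand): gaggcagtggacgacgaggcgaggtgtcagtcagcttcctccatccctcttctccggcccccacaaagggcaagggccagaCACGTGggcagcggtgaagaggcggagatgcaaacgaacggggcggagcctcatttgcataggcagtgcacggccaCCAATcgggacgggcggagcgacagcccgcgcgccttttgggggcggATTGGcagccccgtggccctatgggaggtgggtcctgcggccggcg
Sgk1 (chr10:21993640-21993889, plus strand): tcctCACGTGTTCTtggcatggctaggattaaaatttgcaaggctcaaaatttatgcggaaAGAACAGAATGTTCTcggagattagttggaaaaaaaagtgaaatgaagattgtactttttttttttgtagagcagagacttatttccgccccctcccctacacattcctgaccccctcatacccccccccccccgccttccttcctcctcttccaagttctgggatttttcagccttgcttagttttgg
The full palindrome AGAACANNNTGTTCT, to which the glucocorticoid receptor binds as a dimer, was present in 3 of 32851 windows of all genes (0.00913%). Among these is the Sgk1 window shown, where it begins 189 bases before the start. Sgk1 has several windows, and its others do not hold the palindrome. Its hexamer AGAACA alone was in 16.1% of all windows, so a match to it says little by itself. Outside the palindrome, the Sgk1 window holds 1 further hexamer, which overlaps the E-box CACGTG. The E-box, the motif of clock proteins, was in 6.02% of windows. The Hsd11b1 window shown holds neither the palindrome nor the hexamer, and has 1 CCAAT box (33.8% of windows) that begins 72 bases before the start. The Fkbp5 window has 2 CCAAT boxes and 1 E-box. These matches describe the letters of the windows, and windows further from the starts were not searched.

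The deposited libraries held between 1805914 and 17675454 counts, with a median of 5901652. The labelled populations were checked with marker lists. In the test described below, all 12 epithelial markers were higher in the vehicle-treated Epcam libraries, and all 11 fibroblast markers in the table were higher in CCL206. Neither fraction was free of the other, since the fibroblast markers summed in vehicle-treated Epcam libraries to 21.5% ± 2.66 (SD, n = 4) of their level in the CCL206 libraries of the same cultures, and the epithelial markers in CCL206 libraries to 20.1% ± 10.9 of their Epcam level. The epithelial share was highest in mouse 1, at 35.2%. In the vehicle-treated culture of this mouse, Sftpc was at 664.7 CPM in the Epcam library and 2606 CPM in the CCL206 library. The vehicle-treated Epcam libraries of mice 2 to 4 had 4790 to 6795 CPM of Sftpc. In bulk libraries of this kind, fewer cells of a type and less RNA per cell cannot be told apart. Levels are given below as CPM (reads of a gene per 1e+06 counts of the library) scaled by TMM over the 32 libraries. Differences are log2 values fitted with edgeR (quasi-likelihood F test, with a term for mouse), with their standard error (SE), and are called at an adjusted p under 0.05.

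In vehicle-treated cultures, most of the 7 genes were expressed at a lower level in Epcam cells than in CCL206 fibroblasts. The test called 5 of 7 lower and none higher, whereas 34.3% of all genes tested were called lower in this comparison and 35.3% higher, and 32.9% were lower without overlap. Fkbp5 had the largest difference of the 7. It was at 38.4, 36.7, 42.8 and 41.0 CPM in Epcam cells of mice 1 to 4, and at 105, 109.7, 108 and 107 CPM in CCL206 fibroblasts. The populations did not overlap, and the log2 difference of Epcam from CCL206 was -1.43 (SE 0.10, adjusted p = 3.71e-13). Nr3c1, the receptor itself, was at 94.8, 93.0, 102 and 96.0 CPM in Epcam cells and at 170.4, 169.9, 159 and 158 CPM in fibroblasts. It was thus lower in Epcam cells of all 4 mice, with a log2 difference of -0.77 (SE 0.10, adjusted p = 1.2e-07). Hsd11b1 had few counts in Epcam cells, between 4 and 57 reads per library, which corresponded to 3.38, 3.22, 0.815 and 2.79 CPM. In CCL206 fibroblasts it was at 5.65, 5.52, 9.21 and 7.59 CPM, without overlap (log2 difference -1.36, SE 0.29, adjusted p = 0.000162). Sgk1 (log2 difference -1.23, SE 0.15, adjusted p = 3.61e-08) and Per1 (-0.65, SE 0.16, adjusted p = 0.000721) were lower as well. Tsc22d3 and Klf9 were at similar means in both, 13.8 ± 1.86 against 12.7 ± 1.04 CPM and 88.5 ± 12.2 against 93.0 ± 6.08 CPM (mean ± SD, n = 4), and did not pass the test (adjusted p = 0.581 and 0.586).

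**Figure D1:**
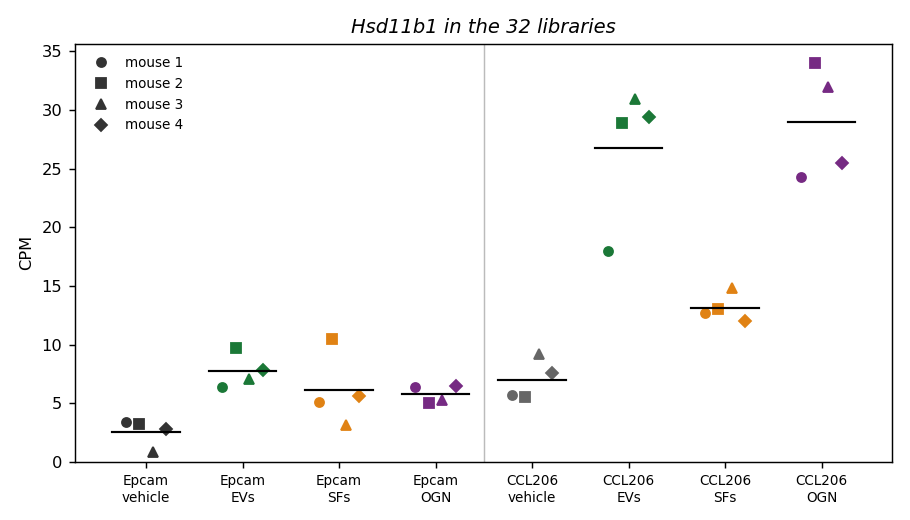
Hsd11b1 level in CPM (linear axis from 0) in each of the 8 groups, with 1 symbol per library whose shape gives the mouse and a bar at the group mean. CCL206 libraries treated with EVs or OGN lie at 17.98 CPM and above, and all others at 14.84 CPM and below.

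Hsd11b1 was higher in OGN-treated than in vehicle-treated CCL206 fibroblasts. After OGN, the fibroblasts of mice 1 to 4 had 24.3, 34.0, 31.98 and 25.5 CPM, against 5.65, 5.52, 9.21 and 7.59 CPM after vehicle. Every OGN library lay above every vehicle library, and the fitted level rose 4.12-fold (log2 difference 2.04, SE 0.16, adjusted p = 1.59e-06). Of all genes tested in this comparison, 2.7% were called higher and 1.86% lower, and 8.44% were higher without overlap. The vehicle libraries of this test are also those of the contrast behind the gene list. OGN against SFs compares none of the libraries of that contrast, but its spread was estimated over all 16 CCL206 libraries, which include them. SF-treated fibroblasts had 12.7, 13.1, 14.8 and 12 CPM, and OGN exceeded SFs in all 4 mice without overlap (log2 difference 1.13, SE 0.16, adjusted p = 0.000887). In OGN against SFs, 1.91% of genes were called higher and 0.881% lower, and 6.19% were higher and 6.59% lower without overlap. SFs themselves gave a level above vehicle in all 4 mice without overlap, as 4.52% of genes did. The log2 difference was 0.91 (SE 0.17), but the adjusted p was 0.115 and only 0.0599% of genes were called in this comparison. Hsd11b1 was called there by the DESeq2 Wald test (adjusted p = 0.0014), and by edgeR when only the groups compared were fitted (0.00841) or the EV-treated libraries were left out (0.00964).

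In the contrast that prompted the list, EV-treated CCL206 fibroblasts had 17.98, 28.9, 30.9 and 29.4 CPM of Hsd11b1, a fitted level 3.80-fold that of vehicle (log2 difference 1.92). The groups do not overlap, as was so for 12% of genes in the upward and 11.6% in the downward direction, and 36% of all genes were called. That share depended on the libraries fitted, since 19 genes were called without mouse 2 and 711 without mouse 4, in place of 4207. With all mice but only the groups compared fitted, 387 were called. Mouse 1 was the lowest of the EV-treated libraries. In the EV-treated CCL206 libraries, expression also varied with transcript length. Across the genes of a library, the log2 difference from the vehicle mean had a Spearman correlation with length of -0.293, -0.562, -0.357 and -0.597 for mice 1 to 4 (genes are not independent replicates). Hsd11b1 has a transcript of 1873 nt, at which the trend amounted to 0.11, 0.52, 0.17 and 0.72 log2 units in these libraries. With the trend taken out, the difference of Hsd11b1 was 1.54. The long transcripts of Nr3c1 (6479 nt) and Klf9 (7888 nt) moved the other way, from -0.34 to -0.08 and from 0.07 to 0.50, so the values of these genes after EVs in fibroblasts depend on this step.

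In Epcam cells Hsd11b1 was also higher with EVs than with vehicle, at 6.35, 9.67, 7.10 and 7.82 CPM against 3.38, 3.22, 0.815 and 2.79 CPM. All 4 EV-treated libraries lay above all vehicle libraries, and the log2 difference was 1.56 (SE 0.34, adjusted p = 0.0271). It was the only 1 of the 7 genes called, in a comparison in which 0.538% of genes were called higher, 0.35% lower, and 3.53% were higher without overlap. This call rested on all of the libraries, since the adjusted p ranged from 0.0597 to 0.314 when any 1 mouse was left out, and was 0.106 without the mouse term and 0.0715 when only the groups compared were fitted. The EV-treated and vehicle-treated Epcam libraries come from the same cultures as the contrast behind the gene list. The call of Hsd11b1 with EVs in Epcam cells is therefore not independent of that choice. After OGN, Hsd11b1 in Epcam cells was at 6.38, 5.02, 5.29 and 6.45 CPM. These values again lay above all vehicle libraries, as those of 3.35% of genes did, but the difference did not pass the test (log2 difference 1.19, SE 0.35, adjusted p = 0.0758). After SFs it was at 5.14, 10.5, 3.13 and 5.62 CPM, higher than vehicle within each mouse but overlapping between groups (log2 difference 1.08, SE 0.35, adjusted p = 0.391).

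Fibroblast transcripts were higher in the Epcam libraries with EVs, but not with OGN. With EVs, 6 of the 11 fibroblast markers in the table were called higher and none lower in Epcam libraries, with a median log2 difference of 0.53. With OGN, 1 was called higher and 2 lower, and the median was -0.18. Their summed level was 3841 to 4638 CPM with EVs against 2672 to 3890 CPM with vehicle, 3111 to 4267 CPM with SFs and 2398 to 3053 CPM with OGN. Of the defining markers, Thy1 is not among the genes of the table. Expressed as a share of the CCL206 level in the same culture, Hsd11b1 in Epcam libraries was at 29.6% ± 5.78 with EVs and 20.7% ± 5.9 with OGN (SD, n = 4). The fibroblast marker sum was at 32.3% ± 6.87 and 19.1% ± 1.76 in the same libraries, so the ranges of the gene and the markers overlapped under both treatments. The marker sums were taken without removing the length trend of the EV-treated CCL206 libraries. In those libraries Fn1, 1 of the 11 markers, was at 4565, 2059, 4117 and 1339 CPM, against 5196 ± 431 CPM with vehicle. Of the 11 markers, 5 had a fitted difference above 0 in that comparison. With vehicle and SFs, Hsd11b1 varied widely, at 40.9% ± 23.8 and 47.2% ± 24.7, with the markers at 21.5% ± 2.66 and 25.3% ± 2.71. Carried-over fibroblast RNA as a part of the Hsd11b1 level in Epcam libraries was not tested.

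**Figure D2:**
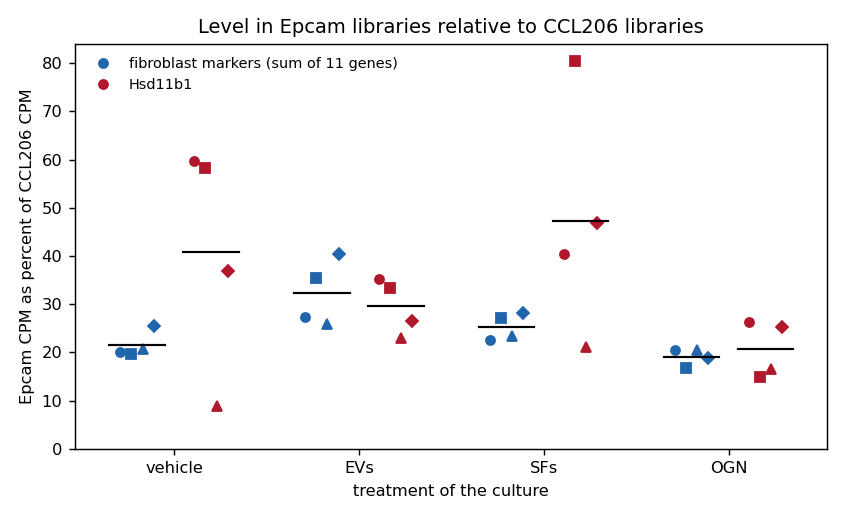
Level in Epcam libraries as a percent of the level in the CCL206 libraries of the same culture, by treatment, for Hsd11b1 (red) and the sum of 11 fibroblast markers (blue). Symbol shapes give the mouse and bars the mean of 4. With EVs and OGN the gene and the marker sum lie in overlapping ranges, and with vehicle Hsd11b1 spreads from 8.85% to 59.7%.

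Ordered by their means, the groups ran from OGN-treated CCL206 fibroblasts (28.9 ± 4.76 CPM) over EV-treated (26.8 ± 5.94) and SF-treated fibroblasts (13.1 ± 1.21) to EV-treated Epcam cells (7.73 ± 1.42). They were followed by vehicle-treated fibroblasts (6.99 ± 1.75), SF-treated (6.10 ± 3.13), OGN-treated (5.79 ± 0.736) and vehicle-treated Epcam cells (2.55 ± 1.18, all mean ± SD, n = 4). The values of OGN-treated and EV-treated fibroblasts overlapped, as did those of neighbours in the order from EV-treated to OGN-treated Epcam cells. The other neighbours were apart.

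Fkbp5, a co-chaperone gene that glucocorticoids induce, was lower with OGN in both populations. In CCL206 fibroblasts it was at 73.1, 60.7, 49.8 and 64.8 CPM with OGN, against 105, 109.7, 108 and 107 CPM with vehicle. The OGN libraries were all below the vehicle libraries, and the fitted level was 0.574 times that of vehicle (log2 difference -0.80, SE 0.11, adjusted p = 0.000378). Of all genes, 1.86% were called lower in this comparison and 7.92% were lower without overlap. It was also lower than with SFs, where it was at 95.3, 98.7, 97.3 and 99.9 CPM (log2 difference -0.67, SE 0.12, adjusted p = 0.00422). Without mouse 2 or without mouse 3 this last adjusted p was 0.0812 or 0.0638. In Epcam cells, Fkbp5 was at 25.9, 34.4, 29.7 and 28.5 CPM with OGN, against 38.4, 36.7, 42.8 and 41.0 CPM with vehicle. All 4 mice were lower and the groups did not overlap (log2 difference -0.44, SE 0.11, adjusted p = 0.0286), in a comparison in which 1.22% of genes were called lower, 1.48% higher, and 2.78% were lower without overlap. The Epcam call was lost without mouse 1 (adjusted p = 0.289), mouse 3 (0.227) or mouse 4 (0.102), without the mouse term (0.0565), with only the groups compared (0.177) and without the EV-treated libraries (0.083).

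**Figure D3:**
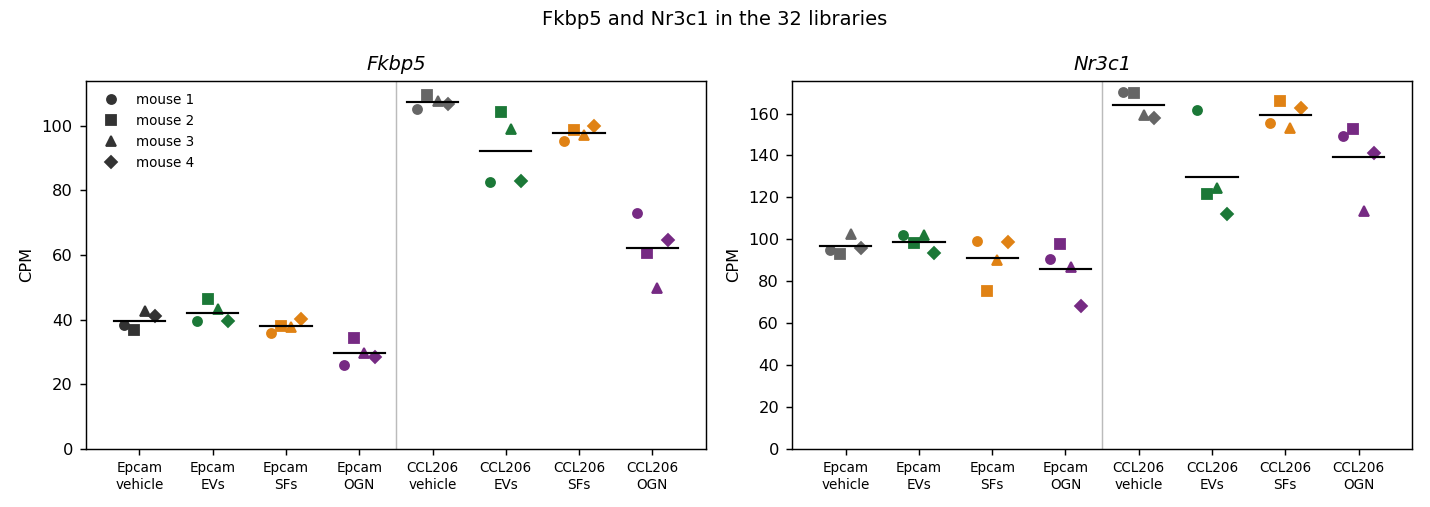
Fkbp5 and Nr3c1 levels in CPM (linear axes from 0) in the 8 groups, with 1 symbol per library whose shape gives the mouse and bars at the group means. OGN-treated libraries have the lowest Fkbp5 values of both populations, and Nr3c1 is higher in CCL206 than in Epcam libraries with the closest values in EV-treated and OGN-treated fibroblasts.

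Against SFs, Fkbp5 in OGN-treated Epcam cells was below all SF-treated libraries, which ranged from 35.95 to 40.2 CPM, and did not pass the test (log2 difference -0.36, SE 0.11, adjusted p = 0.106). None of the 7 genes was called by edgeR in that comparison, 1 had an unadjusted p under 0.05, and DESeq2 called 0. Of all genes, 0.819% were called higher there and 1.09% lower, and 3.47% were lower without overlap. With EVs and with SFs, Fkbp5 in Epcam cells stayed at 42.2 ± 3.41 and 38 ± 1.76 CPM, against 39.7 ± 2.72 CPM with vehicle, and the adjusted p was 0.944 and 0.913. In SF-treated fibroblasts all 4 values were below those of vehicle, as was so for 2.39% of genes, but the log2 difference was -0.13 (SE 0.11, adjusted p = 1). In EV-treated fibroblasts Fkbp5 was at 82.5, 104, 99.2 and 83.1 CPM, all below vehicle (log2 difference -0.21, as a description).

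Nr3c1, the receptor gene, was called in none of the tested treatment comparisons. In CCL206 fibroblasts it was at 149, 153, 114 and 141 CPM with OGN, against 170.4, 169.9, 159 and 158 CPM with vehicle. All OGN libraries were below all vehicle libraries, as was so for 7.92% of genes, but the difference did not pass the test (log2 difference -0.24, SE 0.10, adjusted p = 0.243). It passed when only the groups compared were fitted (adjusted p = 0.0451) and when the EV-treated libraries were left out (0.0174). With EVs the fibroblasts had 161.5, 122, 124 and 112 CPM, of which mouse 1 overlapped with vehicle (log2 difference -0.34, as a description). With SFs they had 159 ± 6.06 CPM. In Epcam cells the group means were 96.6 ± 4.12 CPM with vehicle, 98.9 ± 4.05 with EVs, 90.8 ± 11.3 with SFs and 85.8 ± 12.6 with OGN, and the adjusted p was 0.477 or higher in each comparison with vehicle.

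Sgk1 and Per1 differed more between mice than between treatments. Sgk1 was at 386, 403, 164 and 157 CPM in vehicle-treated fibroblasts of mice 1 to 4, at 418, 477, 172 and 227 CPM with EVs, at 416, 413, 175 and 197 CPM with SFs and at 408, 477, 142 and 229 CPM with OGN. Mice 1 and 2 were thus above mice 3 and 4 under every treatment. In Epcam cells Sgk1 was at 112, 145, 103 and 77.3 CPM with vehicle and at 161, 148, 69.5 and 63.7 CPM with OGN, with the same split. In 8 of 8 groups both mice 1 and 2 lay above both mice 3 and 4, for Sgk1 and also for Per1, whereas this held in 0 to 3 of 8 groups for the other 5 genes. Per1 in vehicle-treated fibroblasts was at 84.9, 92.5, 36.6 and 36.2 CPM, so the mice fell into a high and a low pair. The labels give no day or batch for the mice.

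**Figure D4:**
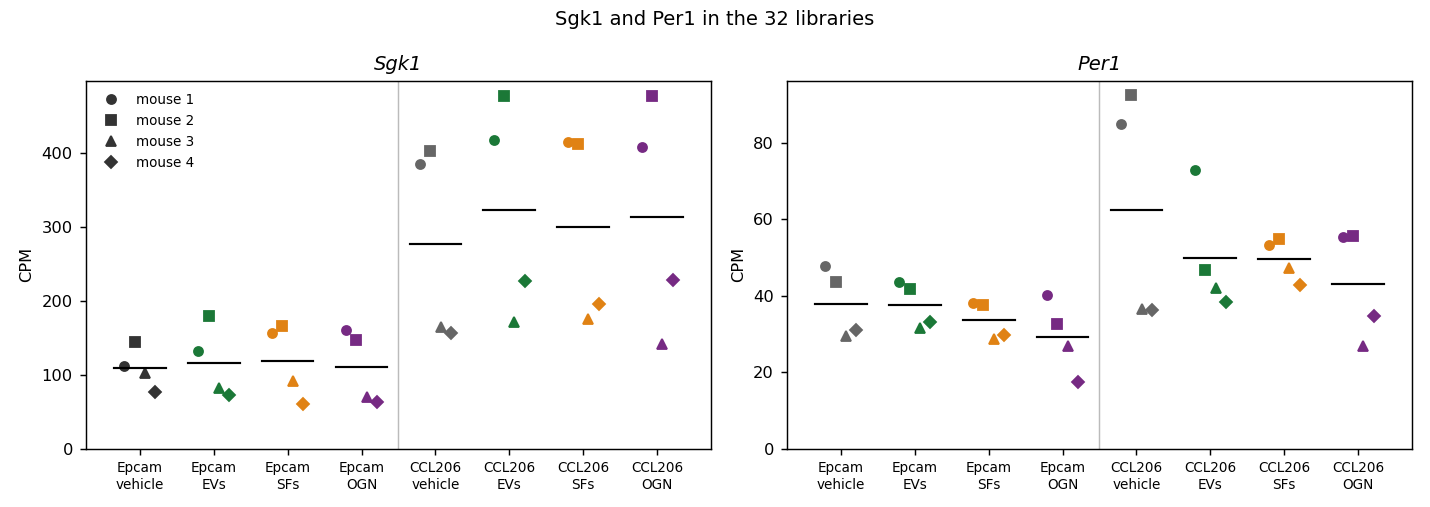
Sgk1 and Per1 levels in CPM (linear axes from 0) in the 8 groups, with 1 symbol per library whose shape gives the mouse and bars at the group means. In each of the 8 groups, circles and squares (mice 1 and 2) lie above triangles and diamonds (mice 3 and 4).

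A list of 17 early genes that respond to cell dissociation, such as Fos, Jun and Egr1, had the same split of mice. Their summed level in vehicle-treated fibroblasts was 5260, 5400, 1980 and 2000 CPM in mice 1 to 4, and in vehicle-treated Epcam cells 2120, 2290, 1450 and 1630 CPM. In OGN-treated fibroblasts it was 3580, 3840, 1300 and 2560 CPM. Sgk1 and Per1 therefore moved with early genes over the mice, and the part of cell handling in their levels was not tested. Neither was called in any treatment comparison tested. For OGN in fibroblasts, Per1 was at 55.5, 55.8, 26.8 and 34.8 CPM and lower than vehicle in all 4 mice, with overlap between the groups (log2 difference -0.49, SE 0.18, adjusted p = 0.182). It was called there when only the groups compared were fitted (adjusted p = 0.0151) and when the EV-treated libraries were left out (0.0276). In OGN-treated Epcam cells Per1 was at 40.2, 32.7, 26.9 and 17.5 CPM against 47.7, 43.8, 29.5 and 31.0 CPM with vehicle, again lower in all 4 mice (log2 difference -0.37, SE 0.12, adjusted p = 0.134). The log2 difference of Sgk1 with OGN was 0.17 (SE 0.11, adjusted p = 0.5) in fibroblasts and -0.06 (SE 0.13, adjusted p = 0.894) in Epcam cells.

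Tsc22d3 and Klf9, 2 further genes that glucocorticoids induce, were not called in any treatment comparison tested. Tsc22d3 was at 13.9, 12.4, 13.0 and 11.4 CPM in vehicle-treated fibroblasts and at 9.45, 8.22, 12.4 and 10.5 CPM with OGN, lower within all 4 mice (log2 difference -0.34, SE 0.21, adjusted p = 0.481). With EVs it ranged from 10.28 to 22.65 CPM in fibroblasts, and mouse 4 had the highest value of the gene in any library. In Epcam cells its means were between 10.9 ± 3.9 CPM with OGN and 13.8 ± 1.86 CPM with vehicle. Klf9 in Epcam cells was at 87.2, 103, 73.5 and 90.2 CPM with vehicle and at 72.4 ± 5.27 CPM with EVs (log2 difference -0.29, SE 0.10, adjusted p = 0.218). In fibroblasts Klf9 was at 138, 123, 85.9 and 87.1 CPM with OGN against 93.0 ± 6.08 CPM with vehicle. Mice 1 and 2 were above the vehicle range and mice 3 and 4 at its lower end, so that the difference was within the spread of the mice (log2 difference 0.20, SE 0.15, adjusted p = 0.594).

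**Figure D5:**
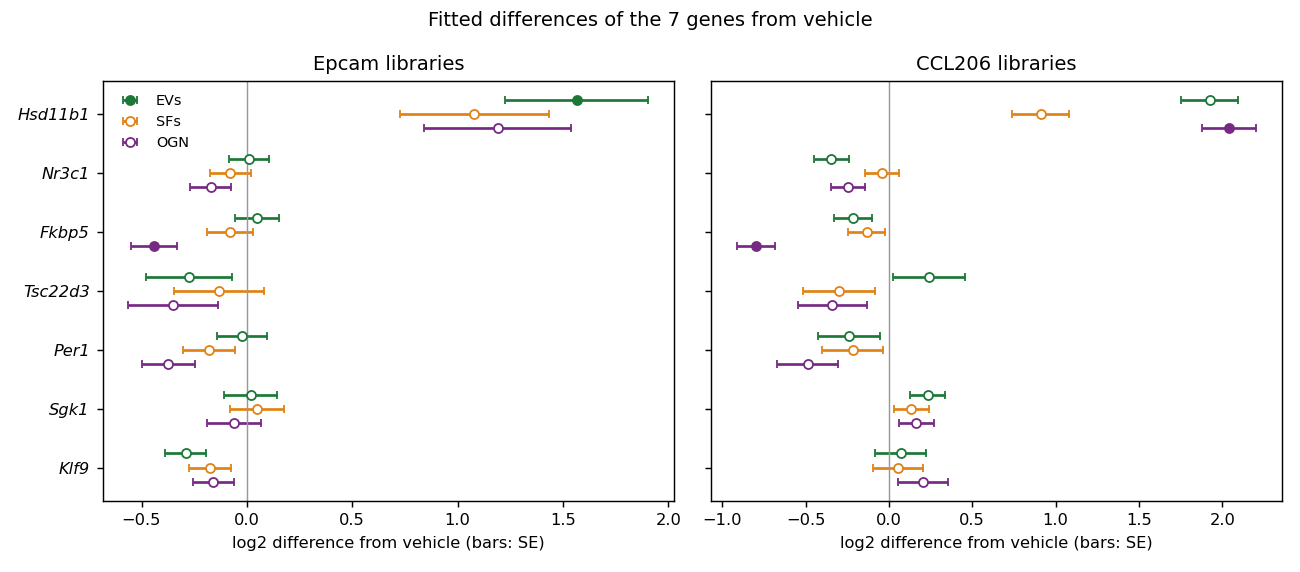
Fitted log2 differences of the 7 genes from vehicle with EVs (green), SFs (orange) and OGN (purple) in Epcam libraries (left) and CCL206 libraries (right), with bars of 1 SE. Filled circles passed an adjusted p of 0.05, and EVs in CCL206 are drawn open because they were not tested. Hsd11b1 lies above 0 and apart from the other 6 genes in every comparison, and Fkbp5 has the lowest value with OGN in both panels.

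The 7 genes thus did not move as 1 group. With OGN in fibroblasts, Hsd11b1 was higher and Fkbp5 lower (2.7% and 1.86% of all genes), 5 were not called, and the median log2 difference of the 7 was -0.24, beside -0.01 over all genes. With OGN in Epcam cells, 1 was called (Fkbp5, lower, as were 1.22% of all genes, with 1.48% higher), and the median was -0.17 beside -0.003 over all genes. With SFs no member was called by edgeR in Epcam cells, where 0.154% of genes were called higher and 0.0768% lower. Hsd11b1 alone had an unadjusted p under 0.05 there, and DESeq2 called 0. Whether the OGN effect differed between fibroblasts and Epcam cells was tested as an interaction over the 32 libraries. The difference for Hsd11b1 was 0.90 (SE 0.35, adjusted p = 0.484) and for Fkbp5 -0.37 (SE 0.15, adjusted p = 0.533). These were the 2 members with an unadjusted p under 0.05, and no member was called by either edgeR or DESeq2, while edgeR called 0.551% of all genes. For SFs, no member had an unadjusted p under 0.05 and edgeR called 0% of all genes (590 genes had an unadjusted p under 0.05, and DESeq2 called 2). A different effect of OGN on Hsd11b1 in the 2 populations was therefore not shown.

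The enzymes that surround Hsd11b1 in steroid metabolism were not called with any treatment in the comparisons tested. Of 14 other corticosteroid enzymes and their helpers, 8 are in the table, and Hsd11b2, the opposing dehydrogenase, is not among them. H6pd, which supplies the NADPH that Hsd11b1 uses, was at 224, 257, 227 and 230.0 CPM in OGN-treated fibroblasts and at 179, 177, 227 and 230.3 CPM with vehicle (log2 difference 0.21, SE 0.16, adjusted p = 0.607). In vehicle-treated cultures H6pd was lower in Epcam cells than in fibroblasts (log2 difference -0.61, adjusted p = 0.000224). Of 7 transcription factors known to bind or regulate the Hsd11b1 promoter that are in the table, Nfkb1, a subunit of NF-kB, was called higher with OGN in fibroblasts, at 159, 140.2, 145 and 156 CPM against 99.9, 108, 102 and 100.4 CPM (log2 difference 0.55, SE 0.10, adjusted p = 0.00224). Cebpd was called higher with OGN in Epcam cells (log2 difference 0.89, SE 0.18, adjusted p = 0.00574). Cebpb, a C/EBP factor of the same list, varied from 17.7 to 86.3 CPM among the vehicle-treated fibroblasts, and with OGN its log2 difference was -0.92 (SE 0.39, adjusted p = 0.255). Of the 22 other receptor partners, all of which are in the table, Stip1, the co-chaperone that links heat shock proteins, was the only 1 called with OGN in fibroblasts (log2 difference 0.40, SE 0.08, adjusted p = 0.00613), and none was called in the other treatment comparisons tested.

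Other glucocorticoid-induced genes did not move in a common direction with OGN. Of 28 in the table, 1 was called higher and 3 lower with OGN in fibroblasts, with a median log2 difference of -0.05. Errfi1, an inhibitor of the EGF receptor, was at 149.8, 156, 186.8 and 213 CPM with OGN, below all vehicle libraries at 525, 502, 289 and 313 CPM (log2 difference -1.19, SE 0.21, adjusted p = 0.00235). Mertk, a receptor for the uptake of dying cells, was lower in fibroblasts (-0.87, SE 0.21, adjusted p = 0.0229) and in Epcam cells (-1.38, SE 0.36, adjusted p = 0.0394). Its level in Epcam libraries was low, with means of 4.87 CPM with vehicle and 1.81 CPM with OGN, against 22.15 CPM in vehicle-treated fibroblasts. The part of fibroblast RNA in the Epcam difference was not tested. Anxa1 was lower (-0.47, adjusted p = 0.0318) and Glul, which makes glutamine, higher (0.39, adjusted p = 0.0226) in fibroblasts. In Epcam cells 2 were called higher with OGN, Tnfaip3 (0.55) and Cebpd (0.89), and 2 lower, Mertk and Tns1 (-0.40). With EVs, the metallothioneins Mt1 (-0.61, SE 0.11, adjusted p = 0.0103) and Mt2 (-0.58, SE 0.12, adjusted p = 0.0165) were called lower in Epcam cells, and with SFs Mt2 (-0.59, SE 0.12, adjusted p = 0.0391).

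Several of the genes that glucocorticoids repress were higher with OGN. Of 25 listed, 15 are in the table, and 10, Il6 and Tnf among them, are not. Of the 15, 6 were called higher and 1 lower (Vcam1, log2 difference -0.57) in fibroblasts, and 7 higher and none lower in Epcam cells, with medians of 0.36 and 0.38. Over all genes, 2.7% were called higher and 1.86% lower in fibroblasts, and 1.48% and 1.22% in Epcam cells. The neutrophil attractant Cxcl5 was at 288, 278, 324 and 256 CPM in OGN-treated fibroblasts against 37.0, 50.9, 31.6 and 37.9 CPM with vehicle (log2 difference 2.88, SE 0.18, adjusted p = 7.65e-08). Ccl20 was called higher in fibroblasts (3.43, SE 0.28, adjusted p = 1.79e-06) and in Epcam cells (1.48, SE 0.18, adjusted p = 1.58e-05). Ptgs2, the inducible cyclooxygenase, was higher by 1.29 in fibroblasts and 0.47 in Epcam cells, and the chemokine gene Cxcl1 by 1.04 and 1.27. Of 10 leukocyte markers listed, 3 are in the table, and Ptprc, which marks all leukocytes, is not. Cd14 and Lyz2 were also called higher with OGN in both populations. In vehicle-treated cultures, 2 of the 3 were called higher in Epcam cells than in fibroblasts, and Lyz2 averaged 218 against 74.5 CPM. Cd14 and Lyz2 alone therefore do not show that leukocytes were present. Of 12 epithelial markers, 2 were called higher and none lower in the OGN-treated CCL206 libraries, with a median log2 difference of 0.43. The fitted difference was above 0 for 9 of the 12. Their summed level was not higher, with a mean of 3269 CPM with OGN against 3301 CPM with vehicle. Sftpc was the largest term of that sum, and its mean was 1245 CPM with OGN against 1771 CPM with vehicle. The sum therefore does not show that the other markers were unchanged. The part of leukocyte or epithelial RNA in the differences was not tested.

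The remaining lists surround Per1 and Sgk1. Of 14 other clock genes in the table, Per3 was the only 1 called with OGN in fibroblasts, at 19.3, 27.7, 24.9 and 23.4 CPM against 44.6, 38.0, 40.9 and 40.8 CPM with vehicle (log2 difference -0.78, SE 0.14, adjusted p = 0.00319). None was called with OGN against vehicle in Epcam cells. Of the 14 other genes of the Sgk1 list in the table, Pdk1 was called higher with OGN in both populations (0.91 in fibroblasts, adjusted p = 5.52e-06, and 0.57 in Epcam cells, adjusted p = 0.000537). In the mouse, Pdk1 encodes a kinase of pyruvate dehydrogenase, whereas the kinase that activates SGK1 is encoded by Pdpk1, which was not called with OGN in either population. Foxo1 was lower in fibroblasts (-0.56, adjusted p = 0.038). In Epcam cells Ndrg1, which encodes an SGK1 substrate, was higher (0.63, adjusted p = 0.000146) and Nedd4l, the ubiquitin ligase that SGK1 restrains, lower (-0.34, adjusted p = 0.0212). Egr1 was the only early gene called with OGN against vehicle, and was lower in fibroblasts (-1.13, SE 0.24, adjusted p = 0.00926) and in Epcam cells (-1.24, SE 0.15, adjusted p = 1.81e-05).

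Across the 16 CCL206 libraries, the genes whose log2 CPM followed Hsd11b1 most closely were Pgk1 (Pearson's r = 0.96), Pkm (0.954), Pfkl (0.949), Lonp1 (0.942) and Eno1 (0.938), of 11688 genes compared. Pgk1, Pkm, Pfkl and Eno1 encode enzymes of glycolysis, and Lonp1 a mitochondrial protease. Of the other members, Nr3c1 (r = -0.765) and Fkbp5 (-0.683) ran opposite to Hsd11b1, while Tsc22d3 (0.0478) and Sgk1 (-0.0269) were near 0. In the 16 Epcam libraries the closest genes were Lum (0.898), Chd1l (0.857), Plod3 (0.84), Pced1b (0.823) and Gpc1 (0.794), of 11715 compared. Lum, which encodes the matrix proteoglycan lumican, is 1 of the fibroblast markers. These correlations describe libraries that share treatments and mice, include the EV-treated libraries by which the list was made, and were not tested.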

How the data were processed

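RNA of the Epcam and the CCL206 fraction of each organoid culture was sequenced, giving 32 libraries. The authors deposited 1 table of raw read counts, not normalized, for 11818 genes. Per the labels and the study's methods, reads had been trimmed with Trimmomatic (version 0.30) and aligned to the mouse genome, named as GRCm38 patch 6 in the methods and as GRCm39 in the labels. Aligner, counter and annotation release are not given in the sources used here, nor is a strand setting, so reads of genes that overlap could not be separated. The lowest count of any gene in any library is 1, and genes with 0 reads in a library are not analysed here. P values cover the spread between cultures of 4 mice.

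Genes were kept with filterByExpr and compared with edgeR (version 4.0.16, R 4.3.3) by the quasi-likelihood F test on TMM-normalized counts, with mouse and treatment as terms over the 16 libraries of a population (11716 genes in Epcam, 11689 in CCL206). Vehicle populations and interactions were tested over 32 libraries (11805 genes). P values were adjusted by Benjamini-Hochberg over all genes. The SE is the absolute log2 difference divided by the square root of F. The mouse number names 1 animal in the labels, so it was used as a block, as in the study's paired design. The mean correlation of deviations was 0.0909 to 0.226 for libraries of the same mouse and -0.0706 to -0.0308 for others. The counts of all 48 pairs of replicates differed by more than counting error. The pipeline was tested on simulated data.

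The members and lists were chosen with earlier results of these data known. Text names all members, up to 4 called genes per list and comparison with the smallest p, and the 5 genes most like Hsd11b1. H6pd, Cebpb, Vcam1, Ptgs2 in Epcam cells, Cd14, Lyz2 and absent markers were named after their values were seen. Correlations used log2 CPM with a prior count of 2. Transcript lengths (GENCODE) were matched to 11694 of 11818 genes (99%, 77 by an older symbol). Promoter windows came from RefSeq. Alternatives were no mouse term, DESeq2 (version 1.42.0), RLE size factors, other filters, fewer libraries and the length trend taken out.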

Additional observations from a re-analysis of the deposited data

Results flagged for a closer look

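Of the 56 groups of 4 libraries that the 7 genes form, 2 held a library far from the other 3, where chance gives about 1 in 20. Both concern Hsd11b1. In vehicle-treated Epcam cells, mouse 3 was at 0.815 CPM (4 reads) and the other mice between 2.79 and 3.38 CPM. On the log2 scale, on which the groups were checked, this is a gap of 0.867 of the group's range. In EV-treated CCL206 fibroblasts, mouse 1 was at 17.98 CPM and the others between 28.9 and 30.9 CPM, a gap of 0.877 of the log2 range. Without mouse 3 the difference of EVs from vehicle in Epcam cells was 1.25, against 1.56 with all mice. Whether the effect of SFs or OGN differed between the populations was tested for each gene, and none of these 14 interactions passed the threshold.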

How the results depend on the processing

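Of 833 values of single genes under alternatives, 810 kept their side of the threshold (differences near 0 that were not called could change sign), 15 lost a call, 8 gained one and no called value turned direction. EVs against vehicle in Epcam cells had 1 member called (Hsd11b1) and 0 without the replicate block, with only the groups compared, without mice 2 and 4, and under a minimum of 10 counts per library, at which Hsd11b1 was no longer among the genes tested. Leaving out 1 mouse gave 0 to 0. OGN against vehicle in Epcam cells had 1 member called (Fkbp5), 2 with DESeq2 (Hsd11b1 added, adjusted p = 0.0192) and 0 without the replicate block, with only the groups compared and without the EV-treated libraries, and 0 to 1 with 1 mouse left out. SFs against vehicle in CCL206 went from 0 to 1 member (Hsd11b1) with DESeq2, with only the groups compared and without the EV-treated libraries. OGN against vehicle in CCL206 went from 2 to 4 (Nr3c1 and Per1 added) with only the groups compared and without the EV-treated libraries, and stayed at 2 with any 1 mouse left out. OGN against SFs in CCL206 had 2, and 1 to 2 with 1 mouse left out. The replicate block changed no other call of a member.

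The difference of Hsd11b1 for EVs in CCL206 was 1.54 with the length trend taken out, against 1.92, and 1.80 to 2.00 with 1 mouse left out. Counts over all genes moved more. The 104 genes called for EVs in Epcam cells became 9 to 201 over the alternatives (9 without the block), the 27 for SFs 6 to 54, the 316 for OGN 144 to 465, and the 224 for OGN against SFs 72 to 388. In CCL206 the 4207 for EVs became 19 (without mouse 2) to 4775, the 7 for SFs 2 to 302, the 533 for OGN 236 to 1770, and the 326 for OGN against SFs 78 to 1290. The 65 of the OGN interaction became 16 to 159 and the 0 of the SF interaction 0 to 32. The cause of these shifts was not tested. Depth limits Hsd11b1 in Epcam libraries, where it had as few as 4 reads.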
